A study of Homo sapiens with 4 samples.

Results

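Chromatin accessibility at the promoters of 42 DNA replication genes was examined in SK-N-BE(2)C, an established MYCN-amplified neuroblastoma cell line. The genes encode origin recognition, licensing, helicase, clamp, polymerase and nucleotide supply proteins, and they were taken from a fixed list of names among 19970 protein-coding genes. ATAC-seq, in which the Tn5 transposase cuts and tags open DNA, was performed on a control group with a non-targeting control gRNA (genotype wildtype, 2 replicates) and on an sgSNHG1 group with a gRNA against SNHG1 (genotype SNHG1 knockout, 2 replicates). Both groups were cultured in the same medium, and the treatment described for the cells was Cas9 with dual guides, puromycin selection and growth of clones from single sorted cells. The study describes a single control clone and several SNHG1-depleted clones, and which of them gave the ATAC-seq libraries is not given in the sources used here, so an effect of SNHG1 and a difference between clones cannot be told apart. The authors combined the replicates of a group before calling peaks. Each value below therefore comes from 1 pooled list per group, has no replicate spread, and carries no test between the conditions.

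DNA replication starts where the origin recognition complex binds and, with CDC6 and CDT1, loads the MCM2 to MCM7 helicase. Helicase activation by MCM10, CDC45 and the GINS complex then lets DNA polymerases copy the template on a PCNA clamp. Many of these genes are transcribed in step with the cell cycle through E2F factors, which are held in check by RB proteins, and MYC-family proteins are known to act on replication genes in growing cells.

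For each gene, every peak within 1 kb of the transcription start site (TSS) of any of its transcripts was taken as a promoter peak. The value of the gene was the highest fold enrichment among them, which is the number of fragments piled up at a summit relative to the local background. There were 47610 peaks in control and 42682 in sgSNHG1. The depth behind a peak is its summit pileup, with a median of 24 fragments in control and 20 in sgSNHG1, and the counting error given below is the Poisson error of this pileup. Peaks were at least 119 bp wide in control and at least 92 bp wide in sgSNHG1, with median widths of 332 bp and 238 bp. As a check of the cell type, the neuroblastoma markers PHOX2A, HAND2, GATA3, ISL1 and DBH had promoter peaks in both lists, and TH had none. Of 5 markers of other cell types, PTPRC, CD3E, ALB and MYOD1 had none, while EPCAM had a promoter peak in both lists (highest fold enrichment 8.86 and 11.3). Its highest control peak lay 24162 bp upstream of the canonical TSS. In both lists that peak covered the start of another EPCAM transcript.

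Most promoter sequences of the helicase and licensing genes carried the letters of an E2F site within 100 bp of the control summit. The 4 forms searched were TTTCCCGC, TTTCGCGC, TTTGCCGC and TTTGGCGC on both strands. They are shown here for the 5 MCM genes that hold them, for both licensing genes with a peak, and for GINS3, whose promoter had the lowest ratio between the lists. Each run is GRCh38 sequence on the strand of the gene, 5′ to 3′, with the E2F match nearest the control summit in capitals. In MCM2, MCM5 and MCM6 a further match overlaps it and is partly in lower case.
MCM2, chr3:127598397-127598436, plus strand: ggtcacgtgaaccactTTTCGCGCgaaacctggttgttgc
MCM3, chr6:52284893-52284932, minus strand: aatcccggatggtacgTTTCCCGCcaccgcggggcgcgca
MCM5, chr22:35399929-35399968, plus strand: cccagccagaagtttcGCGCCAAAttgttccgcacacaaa
MCM6, chr2:135876506-135876545, minus strand: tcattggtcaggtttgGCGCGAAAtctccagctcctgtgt
MCM7, chr7:100101566-100101595, minus strand: cagctcggaccGCGGGAAAcccggcgcctg
CDC6, chr17:40287875-40287904, plus strand: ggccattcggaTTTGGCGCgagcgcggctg
GMNN, chr6:24775317-24775356, plus strand: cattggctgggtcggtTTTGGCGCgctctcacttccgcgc
GINS3, chr16:58392455-58392484, plus strand: cgtccccgggcGCGGGAAAcgagtttcaat

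The centre of the match lay upstream of the nearest TSS in 10 of the 13 members that held the letters. In ORC3, GINS3 and POLA2 it was only 4 bp, 2 bp and 1 bp upstream, so that the match itself reached the TSS. The centre of the match was 32 bp upstream of a TSS in MCM3, 83 bp in MCM6, 186 bp in MCM5 and 172 bp in MCM7, while it was 10 bp downstream in CDC6. In MCM6 the match was 22 bp from the control summit and 40 bp from the sgSNHG1 summit. In MCM3 these distances were 18 bp and 30 bp. Counted on both strands with overlaps, MCM6 held 4 matches within 100 bp of the control summit, MCM2 and MCM5 held 2 each, and the other MCM genes with the letters held 1.

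Over all members with a control peak, 13 of 39 (33.3%) had E2F letters within 100 bp of the control summit, against 476 of 13241 protein-coding genes with a control peak (3.6%). Within 50 bp there were 5 of 39 (12.8%), against 1.9%. The 13 within 100 bp were MCM2, MCM3, MCM5, MCM6, MCM7, CDC6, GMNN, ORC3, GINS2, GINS3, RFC3, POLA2 and LIG1. The MCM helicase genes stood out by count, with 5 of 6, MCM4 being without a match, and both licensing genes with a peak had one. The origin recognition genes had 1 of 6, the helicase activators 2 of 6, and RPA2, RPA3, RRM1 and RRM2 had none. Around the sgSNHG1 summits the share was 13 of 40 (32.5%), against 3.5% of all promoters. In the RefSeq promoters (GRCh38.p14, 250 bases before to 50 bases after the start), which covered 36 members, 17 (47.2%) held the letters against 5.5% of all genes. The LIG1 match shared bases with a GC box.

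The CCAAT box, bound by NF-Y, was also frequent. It lay within 100 bp of the control summit in 21 of 39 members (53.8%), against 30.1% of all promoters, and in 18 of these 21 it was within 50 bp. Both CCAAT and E2F letters were found in 7 members, namely ORC3, CDC6, GMNN, MCM3, MCM5, MCM6 and MCM7. Neither was found in 12. The GC box GGGCGG was near the control summit in 64.1% of members, against 61.0%. The E-box CACGTG, the form preferred by MYC proteins, was within 100 bp of the control summit in 1 of 39 members (2.6%, against 7.0%) and of the sgSNHG1 summit in 3 of 40 (7.5%, against 7.6%). In the RefSeq promoters the shares were 61.1% against 42.5% for CCAAT, 27 of 36 members against 65.1% for the GC box and 16.7% (6 of 36) against 10.9% for the E-box, so that the E-box was below the share of all promoters around control summits and above it in the RefSeq windows. The median GC content of the windows was 66.2% in members and 67.2% in all promoters. A match describes the sequence and not the binding of a factor.

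**Figure D1:**
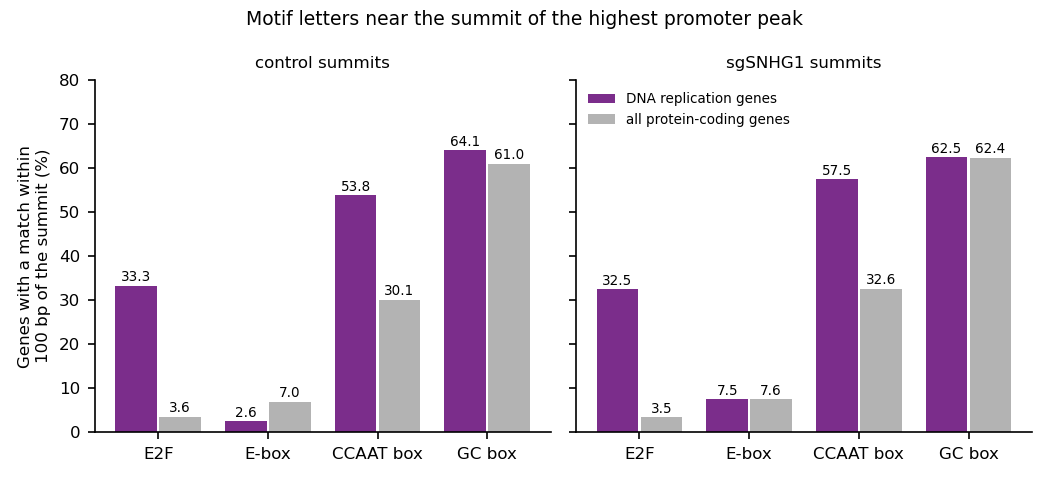
Share of genes (%, y axis) with motif letters within 100 bp of the summit of the highest promoter peak, for DNA replication genes (purple) and all protein-coding genes with a peak (grey), in the control list (left) and the sgSNHG1 list (right). E2F letters were in 33.3% and 32.5% of members against 3.6% and 3.5% of all genes, while the GC box differed little.

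Nearly all members had accessible promoters in both lists. A promoter peak was called for 39 of 42 members in control and 40 of 42 in sgSNHG1, where 66.3% and 62.1% of all protein-coding genes had one. A peak in control alone was found for 0 members and a peak in sgSNHG1 alone for 1. Of the 13583 protein-coding genes with a peak in either list, 8.71% had one in control alone and 2.52% in sgSNHG1 alone.

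The exceptions were RPA1, CDT1 and POLD1. RPA1 encodes the large subunit of the single-strand binding protein RPA. Its sgSNHG1 peak (chromosome 17, 1829861 to 1830058) covered the TSS with a fold enrichment of 5.52 from a pileup of 14 fragments. The nearest control peak was 74064 bp away. The divergent gene SMYD4 starts 103 bp from RPA1, and the sgSNHG1 summit lay 7 bp from the SMYD4 start. The sgSNHG1 peak can therefore not be assigned to RPA1 alone. This peak was shallow, since promoter peaks of all genes started from 10 fragments in control and 9 in sgSNHG1, and accessibility below that was not detectable at this depth. CDT1, which loads the helicase, had no promoter peak in either list, and its nearest peaks lay 5595 bp away in control and 6221 bp away in sgSNHG1. POLD1, the catalytic subunit of DNA polymerase delta, also had none, with nearest peaks at 7741 bp and 7698 bp.

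The members with peaks lay high among promoters. Their median fold enrichment was 9.71 in control (quartiles 7.65 and 10.6), against 7.60 (5.76 and 9.72) for all promoters with a peak. In sgSNHG1 it was 8.92 (6.96 and 10.0), against 7.35. In control 29 of 39 members lay above the median of all promoters, 19 lay above their upper quartile and 4 below their lower quartile. The pileups behind these values had a median of 49.0 fragments in control and 39.5 in sgSNHG1, and the control median over all promoters was 39.0. Summits sat close to the start, with a control median of 33 bp upstream of the nearest TSS and 37 of 39 within 200 bp. Over all 13241 genes with a control peak the median position was -36 bp from the nearest TSS, and 10425 lay within 200 bp. By annotation, 18 of the 39 control summits lay outside the gene, 12 in a UTR, 5 in an intron, 3 in a coding exon and 1 in an exon of a non-coding transcript.

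The most accessible promoter in control was that of MCM3, a helicase subunit. Its peak (chromosome 6, 52284502 to 52285088) reached a fold enrichment of 16.5 in control, from 160 fragments, and 13.1 in sgSNHG1, from 84 fragments, the deepest member summits of both lists. ORC3, an origin recognition subunit, followed with 16.0 (92 fragments) in control and 14.6 (66 fragments) in sgSNHG1. MCM10, which helps to activate the helicase, had 14.2 in control and 15.2 in sgSNHG1, where it ranked highest. Next came RPA3, the small RPA subunit, with 13.1 and 13.8, and GINS4 with 12.2 and 11.5. The RPA3 values came from a start 78006 bp from its canonical TSS, near which it had 6.12 and 7.72. From MCM3 to GINS4, each neighbouring pair in this order differed in control by less than the counting error, so that their order is not firm.

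The least accessible promoters with a peak in control were those of LIG1, RFC3, POLA2, RFC1 and PRIM2. LIG1, the ligase that seals lagging strand fragments, had values of 4.37 (13 fragments, control) and 4.78 (12 fragments, sgSNHG1). RFC3, a clamp loader subunit, had 4.68 and 5.15. POLA2, the accessory subunit of polymerase alpha, had 4.78 and 4.98, and RFC1, the large clamp loader subunit, had 5.60 and 5.88. PRIM2, the large primase subunit, had 6.48 and 7.05. All of these were nominally higher in sgSNHG1, each by less than a counting error. Since they were picked by low control values, no direction is read from this. The PRIM2 values came from peaks at different sites. In sgSNHG1 the order differed, with LIG1, POLA2 and RFC3 lowest, followed by RPA1 (5.52) and FEN1 (5.59).

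**Figure D2:**
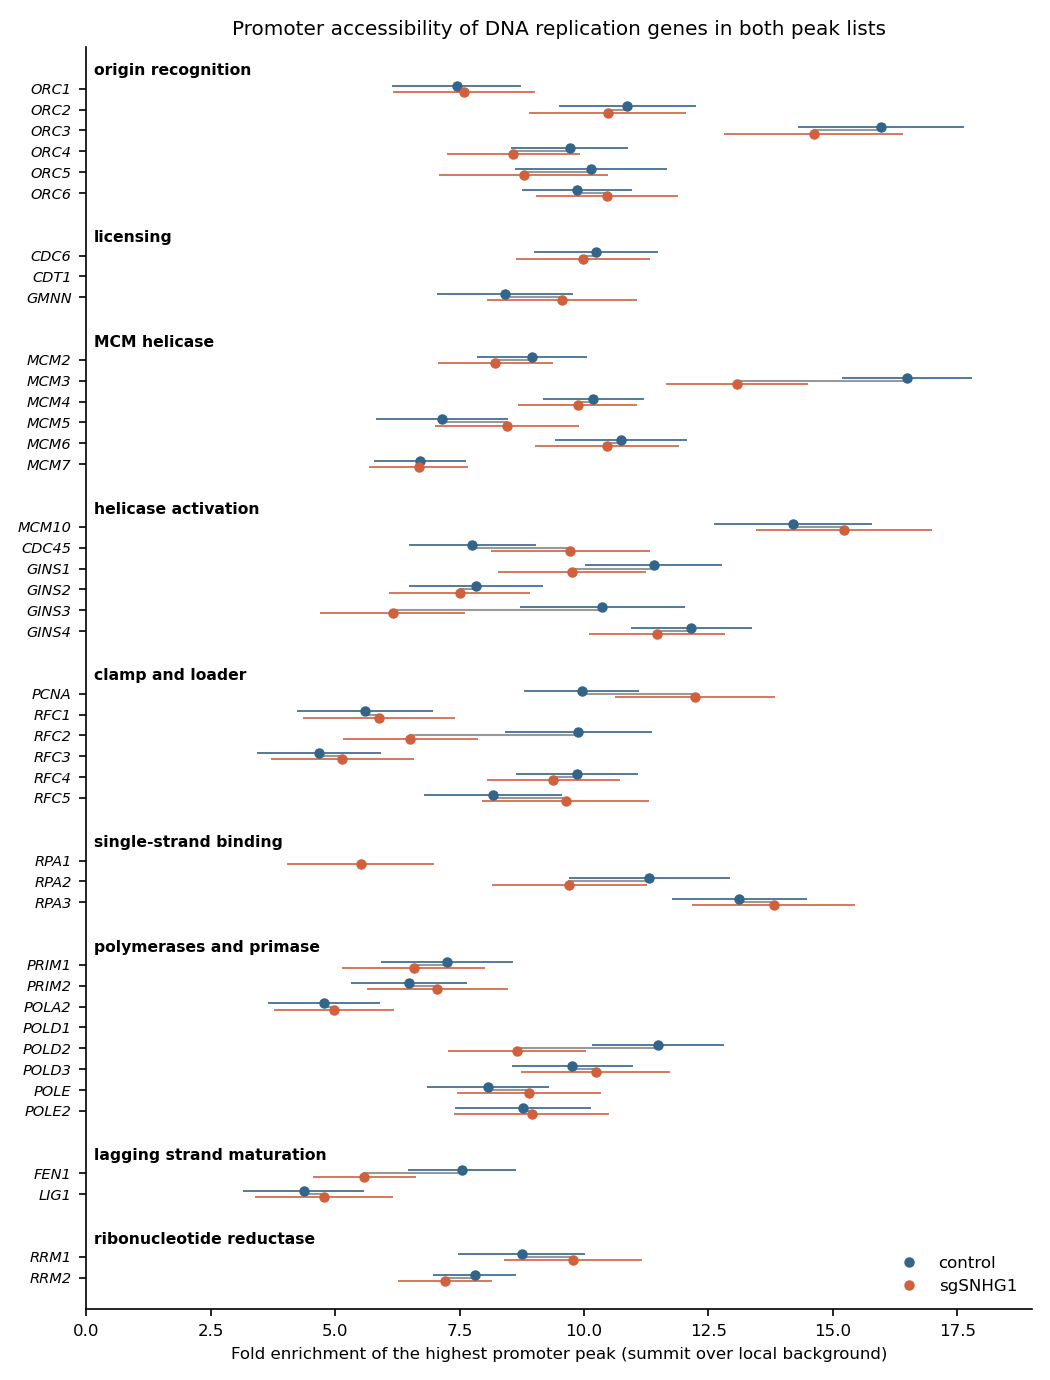
Fold enrichment of the highest promoter peak (x axis) for each of the 42 members, grouped by role, in control (blue) and sgSNHG1 (orange); bars are the counting error of the summit pileup. CDT1 and POLD1 have no point and RPA1 has a point in sgSNHG1 alone, while MCM3 lies highest in control at 16.5 and MCM10 highest in sgSNHG1 at 15.2.

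Between the lists the members differed little. Log2 ratios of sgSNHG1 to control fold enrichment had a median of -0.04 over the 39 members with a peak in both lists (quartiles -0.13 and 0.11), against -0.07 (-0.27 and 0.11) over 12058 protein-coding genes. The value was lower in sgSNHG1 for 21 members and higher for 18, where 60.5% of all genes were lower. The SD over members was 0.23, which is below the median counting error of a single ratio of 0.29. On fold enrichment no member passed 2 counting errors, which 1.36% of all genes did downwards and 0.473% upwards. Past 1 counting error were 6 members (15.4%), against 22.9% of all genes. Another measure was the pileup scaled by the genome-wide background of each list. Its median log2 ratio was 0.01 and 19 members were lower, so that the sign of the median is not firm. On the scaled pileup MCM3 (log2 ratio -0.571, counting error 0.194) and POLD2 (-0.585, counting error 0.285) fell past 2 counting errors. The share of all genes that did so was not computed.

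A ratio of at least 1.5-fold was reached downwards by 2 members, GINS3 and RFC2, and upwards by 0, where 4.33% of all genes fell and 1.1% rose that far. GINS3 (chromosome 16, 58392305 to 58393079), a subunit of the GINS complex, stood at 10.4 in control, from 39 fragments, and at 6.16 in sgSNHG1, from 18 fragments. Its log2 ratio of -0.75 was 1.83 times its counting error of 0.41. The control peak of 775 bp was met by peaks of 297 bp and 141 bp in sgSNHG1, and when the peaks of a promoter were summed GINS3 no longer reached 1.5-fold. RFC2, a clamp loader subunit, had 9.89 in control (45 fragments; chromosome 7, 74254201 to 74254800) and 6.51 in sgSNHG1 (23 fragments), a log2 ratio of -0.60 ± 0.37 (counting error, here and below). The scaled pileups of peak pairs within 5 Mb gave a median log2 ratio of 0.03 at GINS3 (113 pairs) and -0.004 at RFC2 (143 pairs). A change over a shorter stretch was not tested. The members lie on 17 chromosomes, with RFC1 alone on chromosome 4 and none on chromosome 9 or the X chromosome, and around all of them these medians ran from -0.25 to 0.24.

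The other low ratios were at FEN1, POLD2 and MCM3. FEN1, the flap endonuclease of lagging strand maturation, had values of 7.54 (control) and 5.59 (sgSNHG1), a log2 ratio of -0.43 ± 0.34. Its promoter is shared with TMEM258, 312 bp away. POLD2, an accessory subunit of polymerase delta, went from 11.5 to 8.65 (log2 ratio -0.41 ± 0.29). MCM3 had a ratio of -0.33 with the smallest error of the members, 0.19.

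The highest ratios were at CDC45, PCNA, MCM5, RFC5 and GMNN. CDC45, which joins the active helicase, had a pileup of 37 fragments in both lists. Its fold enrichments were 7.75 (control) and 9.72 (sgSNHG1), over local backgrounds of 3.90 and 2.91 fragments. Scaled by the genome-wide background of each list, the log2 ratio was 0.36 for its pileup and -0.065 for its local background. The log2 ratio of its fold enrichment was 0.33 ± 0.34. MCM5 went from 7.15 to 8.46 (0.24 ± 0.37) and RFC5, a clamp loader subunit, from 8.17 to 9.63 (0.24 ± 0.35). GMNN, geminin, which binds and restrains CDT1, went from 8.42 to 9.55 (0.18 ± 0.33). PCNA had a ratio of 0.30 with an error of 0.25, from summits at different sites.

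**Figure D3:**
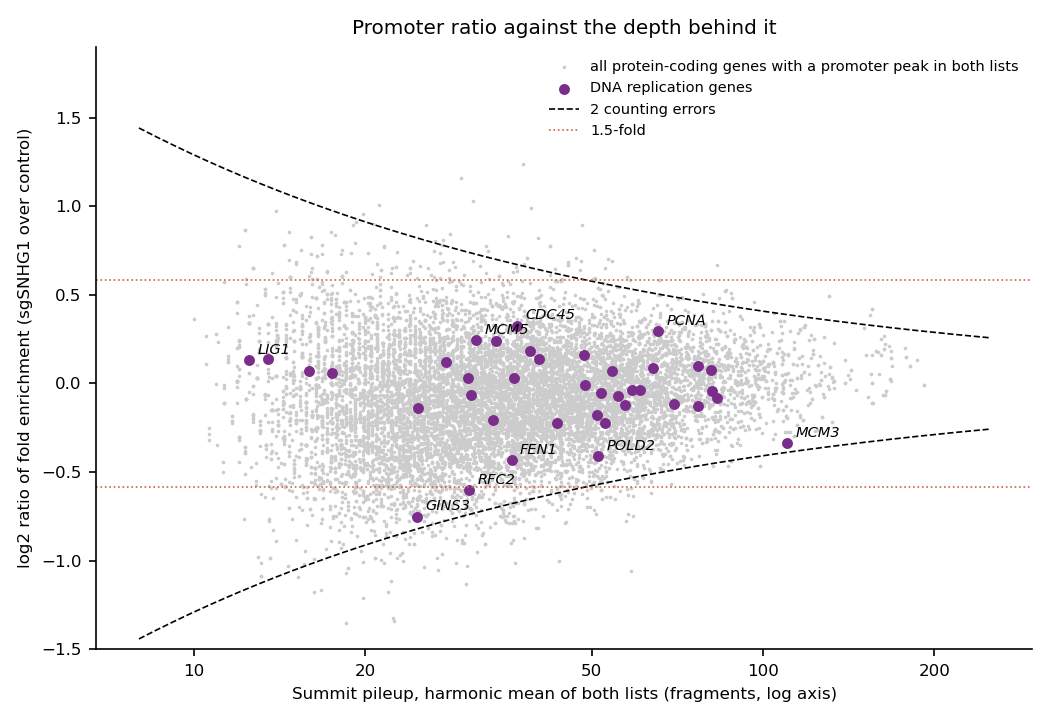
Log2 ratio of sgSNHG1 to control fold enrichment (y axis), against the harmonic mean of the summit pileups in fragments (x axis, log scale), for 12058 protein-coding genes (grey) and the 39 DNA replication genes with a peak in both lists (purple). All 39 lie within 2 counting errors (dashed), and GINS3 and RFC2 alone lie past 1.5-fold (dotted).

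By role, the direction was mixed and the medians were small. Of the MCM helicase genes 5 of 6 were lower in sgSNHG1, with a median log2 ratio of -0.04, and MCM2 (8.96 and 8.22), MCM4 (10.2 and 9.87), MCM6 (10.8 and 10.5) and MCM7 (6.71 and 6.68) each moved by less than a counting error. The origin recognition genes had a median of -0.09 with 4 of 6 lower, from -0.21 at ORC5 to 0.09 at ORC6. The helicase activators had -0.07 with 4 of 6 lower. The clamp and loader genes had 0.10 with 2 of 6 lower, and the polymerases and primase 0.06 with 2 of 7 lower. CDC6, the loading ATPase, had fold enrichments of 10.2 and 9.97, a log2 ratio of -0.04. The ribonucleotide reductase genes, whose products make deoxynucleotides, went in opposite directions, with 8.75 and 9.78 at RRM1 and 7.80 and 7.21 at RRM2, both within a counting error. RRM2 had the highest local background of the members, 10.3 fragments in control and 7.19 in sgSNHG1.

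The ratios of members with and without E2F letters overlapped. The 13 members with them had a median log2 ratio of -0.04 (range -0.75 to 0.24, 8 lower), and the 26 without had -0.01 (range -0.60 to 0.33, 13 lower). Their fold enrichments in control had medians of 8.42 and 9.81.

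Several members have more than 1 promoter region, because transcripts start far apart, and the highest peak was then not always at the canonical TSS. For GINS1 the highest peak lay 16666 bp upstream of the canonical TSS, close to the start of ABHD12, with 11.4 and 9.76. At its own canonical TSS, a choice made after the data were seen, GINS1 had 10.4 in control (38 fragments) and 6.70 in sgSNHG1 (20 fragments), a log2 ratio of -0.63 ± 0.40. With that choice 3 members, GINS1, GINS3 and RFC2, fell by at least 1.5-fold. For the scaled pileup of the 75 peak pairs around GINS1 the median log2 ratio was -0.25, the lowest of all members.

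PCNA encodes the sliding clamp. Its highest control peak (9.95) lay 6843 bp upstream of the canonical TSS near CDS2, and its highest sgSNHG1 peak (12.2) lay at the canonical TSS, where the control value was 9.40. The log2 ratio there was 0.38 ± 0.26, above that of every other member at its canonical TSS. RPA3 had its highest peak 78006 bp from the canonical TSS, with the control summit 151 bp from the start of another gene. The weaker peaks near the canonical TSS of RPA3 had 6.12 and 7.72 from 19 and 20 fragments. POLD3, an accessory subunit of polymerase delta, had 9.77 and 10.2 at a start 99272 bp upstream near LIPT2-AS1, and 6.92 and 6.07 at the canonical TSS. PRIM2 had a control peak of 295 bp at the canonical TSS that met no sgSNHG1 peak, and a peak 864 bp upstream in control (6.36) and 912 bp upstream in sgSNHG1 (7.05). MCM7 had peaks on either side of its start, and the upstream peak, shared with AP4M1, had 6.71 and 6.34, while the peak inside the gene had 6.52 and 6.68. RRM2 had a peak 2351 bp upstream with 5.65 and 5.77, and GINS4 held 3 promoter peaks in each list.

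The sites themselves were largely the same. Of 48 control promoter peaks of the members 47 overlapped an sgSNHG1 peak (97.9%, 95% Wilson interval 89.1 to 99.6), against 81.2% of the promoter peaks of all genes. Of 53 sgSNHG1 peaks 50 overlapped a control peak (94.3%, 84.6 to 98.1), against 92.0%. These intervals cover counting error only. The highest peak was the same site in 36 of 39 members, the exceptions being MCM7, PCNA and PRIM2. Among the 36 the summits were a median of 49.5 bp apart. Of all protein-coding genes with a peak in both lists, 11277 of 12058 had the same site, a similar share. Their median distance between summits was slightly smaller. Keeping the same highest site was therefore not particular to the members.

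Width differed more than height. The highest peak was narrower in sgSNHG1 in 27 of 39 members and wider in 12, with a median difference of -110 bp, where 83.8% of all genes were narrower, with a median of -145 bp. Members had a median width of 672 bp in control, against 500 bp in sgSNHG1. The shortest peaks allowed in the lists differed too (119 bp and 92 bp), and the part of this in the widths was not tested. All 6 origin recognition genes were narrower, by a median of 331 bp. Among the polymerases and primase 5 of 7 were wider, by small amounts at POLD2 (672 bp and 693 bp) and POLA2 (228 bp and 272 bp). The widest control peaks were those of MCM4 (1567 bp, and 1426 bp in sgSNHG1), ORC6 (1530 bp and 933 bp), ORC4 (1364 bp and 517 bp) and POLE (1215 bp and 524 bp). Of 48 control promoter peaks of the members 3, those of ORC4, ORC6 and GINS3, were each met by 2 peaks in sgSNHG1. The share over all control promoter peaks was not computed.

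**Figure D4:**
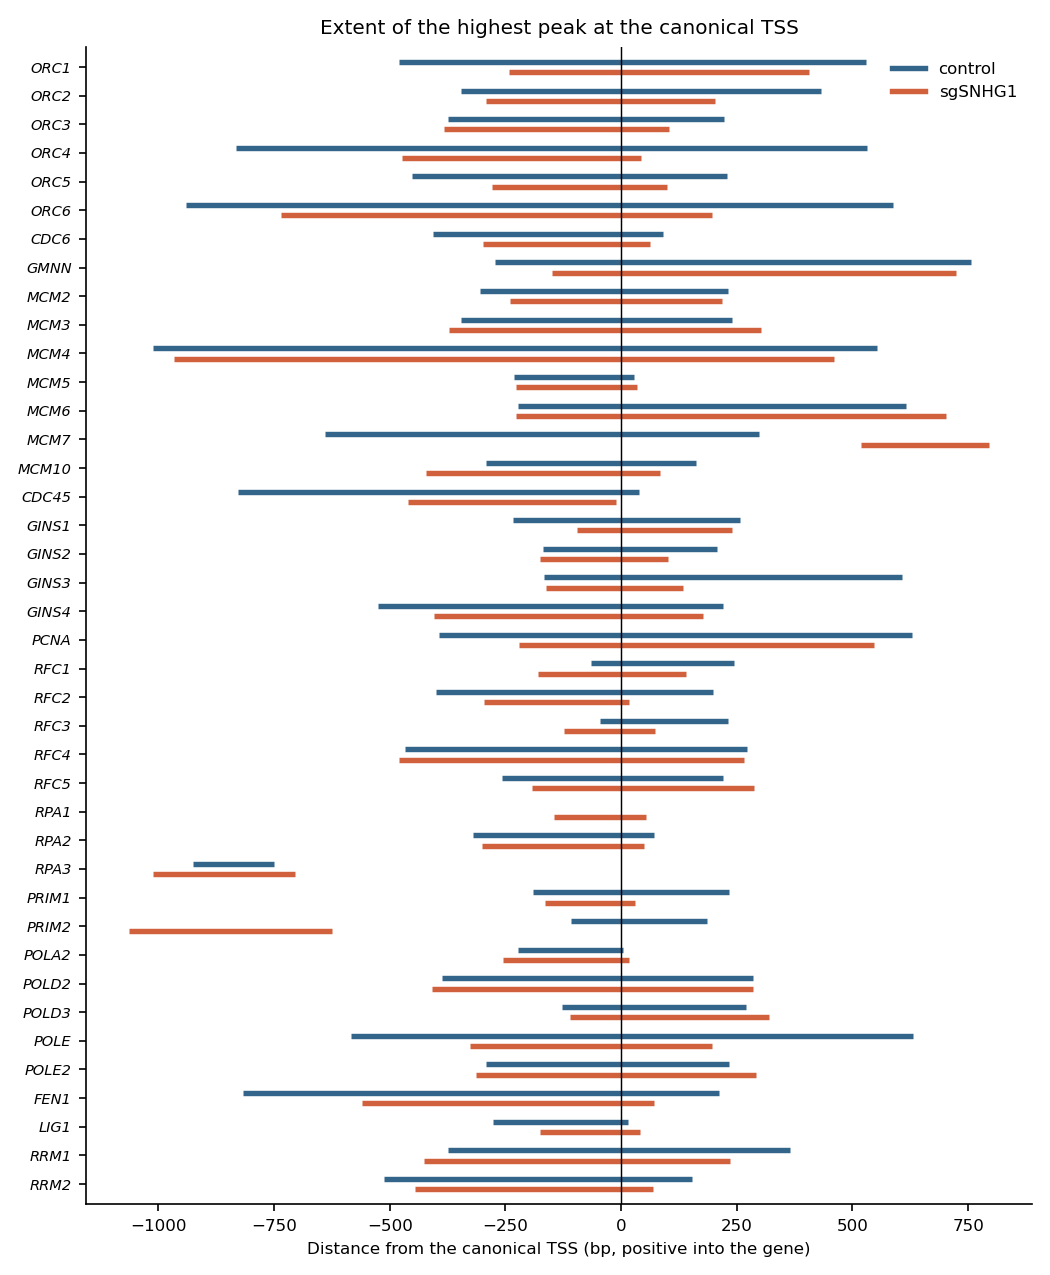
Extent of the highest peak within 1 kb of the canonical TSS for the 40 members with a peak there, as distance from the TSS in bp (x axis, positive into the gene), in control (blue) and sgSNHG1 (orange). Most peaks span the TSS and most orange bars are shorter than the blue ones, with ORC4, ORC6 and POLE among the largest differences, while the highest MCM7 and PRIM2 peaks lie at different places.

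A divergent protein-coding neighbour started within 1 kb of 11 of 42 members (26.2%), against 9.5% of all protein-coding genes. ORC1 was paired in this way with PRPF38A (179 bp), ORC3 with RARS2 (148 bp), ORC4 with MBD5 (354 bp) and ORC6 with VPS35 (481 bp), so that 4 of the 6 origin recognition genes shared their promoter region. The other paired members were MCM4, MCM7, CDC45, RPA1, POLE, FEN1 and LIG1. At these promoters a peak cannot be assigned to either gene alone.

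The other replication and S-phase genes examined, 43 in all and among them E2F, cyclin, topoisomerase and checkpoint genes, had promoter peaks in 42 genes in control and 40 in sgSNHG1. Of the 40 with a peak in both lists 29 were lower in sgSNHG1 and 11 higher, with a median log2 ratio of -0.11. Over all protein-coding genes 60.5% were lower, with a median of -0.07. RECQL4, a helicase of origin firing, and CHTF18, an alternative clamp loader subunit, had a peak in control alone, with 3.73 from 39 fragments and 4.16 from 24 fragments. Of all genes with a peak in either list 8.71% had one in control alone. DNA2, a nuclease of lagging strand maturation, went from 7.67 (27 fragments) to 3.76 (10 fragments), a log2 ratio of -1.03 ± 0.53. RNASEH2C, an RNase H2 subunit, went from 8.63 (49 fragments) to 5.12 (27 fragments), a log2 ratio of -0.75 ± 0.35, or 2.18 errors. DNA2 and RNASEH2C were the only 2 of the 40 that fell by at least 1.5-fold, against 4.33% of all genes. RNASEH2C alone fell past 2 errors, against 1.36% of all genes. No gene of this wider list was higher by 1.5-fold, against 1.1% of all genes, and ATAD5 had no promoter peak in either list.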

How the data were processed

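ATAC-seq libraries of SK-N-BE(2)C cells, 2 per group, were processed by the authors with cutadapt, BWA on GRCh38, Picard, deepTools, which moved read ends to the transposase cut, and MACS2, which read the pairs as fragments and dropped no further duplicates. Versions and the significance threshold are not given in the sources used here. Replicates were pooled before peak calling, which hides peaks that rest on 1 library.

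The 2 deposited lists give per peak a score, a fold enrichment at the summit (a ratio to the local background with a pseudocount of 1), -log10 p and -log10 q values and the summit position. The score deposited by the authors, the -log10 q times 10, was not used for any result. The fold enrichment and the -log10 values deposited by the authors were used as given. From them the whole-number summit pileup was solved within 0.001 of the -log10 p, for 47609 of 47610 control and 42682 of 42682 sgSNHG1 peaks. None of the unsolved peaks touched a member. Dividing the pileup by the smallest local background of the list (2.20 and 1.72 fragments) gave the scaled pileup. The counting error of a log2 ratio is the Poisson error of both pileups. It leaves out variation between replicates. The solving of pileups and the counting of overlaps were tested on simulated data.

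Genes and TSSs came from GENCODE version 44 on chromosomes 1 to 22 and X. Overlap was at least 1 bp. Shares have 95% Wilson intervals. With 1 pooled list per group a ratio of at least 1.5-fold was counted as called. Motifs were read from GRCh38 and from RefSeq promoters, where GINS4, MCM4, MCM5, POLD3, RPA2 and RPA3 were not matched. Python 3.11.15, pandas 2.3.3, scipy 1.17.1, pysam 0.24.0 and samtools 1.23.1 were used.

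The members and gene lists were chosen with earlier results of these data known. Part of the cell type marker list is not reported here. Members were named in full by a fixed rule, namely those without a peak in a list, past 1.5-fold or 2 errors, with the 5 highest or lowest control fold enrichments, the 5 largest ratios in each direction, the deepest or widest peak, different highest sites or more than 1 promoter peak. Other genes were named where past 1.5-fold or in 1 list alone. Alternatives tried were stricter -log10 q limits, other TSS windows and definitions, other measures of height, stricter overlap and a smaller motif window.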

Additional observations from a re-analysis of the deposited data

How the results depend on the processing

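No paired analysis was possible because the replicates of each group were pooled before peak calling, so that no column carries a replicate number and no replicate could be left out. Of 56 alternative values 49 stayed within the limits set for them and 7 moved. The number of members with a peak in control alone, 0, became 1 at a -log10 q of at least 10 (GINS3) and 1 with a TSS window of 500 bp (PRIM2). The number past 1.5-fold, 2, became 1 at a -log10 q of at least 10, 1 with the TSS of the gene record alone and 1 with summed fold enrichment, RFC2 in each case. The share of control promoter peaks found in both lists became 87.5% when the overlap had to reach 50% of each peak. The number of members with E2F letters became 5 within 50 bp of the control summit, where 1.9% of all promoters had them. The median log2 ratio of fold enrichment ran from -0.042 to 0.009 over its alternatives, within its counting error of 0.067. It turned positive with the scaled pileup alone. That measure also put MCM5 past 1.5-fold upwards (0.59), within 2 counting errors. On it MCM3 (-0.571) and POLD2 (-0.585) fell past 2 counting errors without reaching 1.5-fold. With pileups of 12 to 160 fragments, the median counting error of a member ratio is 0.29, so that a difference of 1.5-fold (0.58) at a typical member is about as large as 2 errors.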

Other observations

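Peaks inside the genes and away from every promoter window were few. In control 11 members held 16 such peaks and in sgSNHG1 7 members held 11. PRIM2, which spans 332046 bp, held 3 in each list, with highest fold enrichments of 10.9 in control and 7.72 in sgSNHG1, both above its promoter values. POLA2 held 2 in control (highest 7.29) and 3 in sgSNHG1 (highest 6.41), where its promoter had 4.78 and 4.98. CDC6 held 1 in each list, with 6.13 and 6.62. Peaks of this kind were found in control alone at ORC4 (1, 5.62), MCM2 (2, highest 3.82), MCM3 (1, 5.03), RFC3 (2, highest 5.31), RPA3 (1, 5.31) and RRM2 (1, 4.73), and in sgSNHG1 alone at MCM6 (1, 4.51) and RFC4 (1, 3.27). The share of all genes with such peaks was not computed, and the control list held more peaks in all (47610 against 42682). No difference between the lists is therefore read from these counts.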
